A study of Mus musculus with 4 samples.

Results

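The genes described here drive or mark cell division: the cyclins, the cyclin-dependent kinases (CDKs) and their inhibitors, and the genes of DNA replication and mitosis. They were chosen by name, as 50 listed symbols, and matched to the array by the gene name in the scanner files or a synonym of it. All 50 had a probe, 83 probes in all. Of these genes 47 entered the test, beside 17628 genes in the whole series. Cdk2, Cdc25c and Kif11 did not enter it, because none of their probes was well above background in all samples of either group.

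Kidney RNA of Th3 mice was compared with kidney RNA of control mice on 4 two-colour Agilent arrays, with 1 Th3 and 1 control sample on each. Th3 is a strain used as a model of beta-thalassemia, an inherited anaemia, and carries a deletion of both adult beta-globin genes, beta-major and beta-minor. The control strain is labelled only as control, and the labels give no age, sex, zygosity or treatment. The Th3 sample was labelled with Cy5 on arrays 1 and 2 and with Cy3 on arrays 3 and 4, and the control sample with the other dye. Whether the 8 samples are 8 separate animals is not stated in the labels, so p-values measure the spread between these samples, which may be technical.

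Progress through the cell cycle rests on CDKs that are switched on by cyclins made and destroyed in turn. D-type and E-type cyclins carry cells from G1 into S phase, where the MCM helicase opens DNA and nucleotide enzymes feed its synthesis. A-type and B-type cyclins with Cdk1 carry cells through G2 into mitosis, and the anaphase-promoting complex then destroys them. In the adult kidney few tubular cells divide at any time, and CDK inhibitors such as p57 of podocytes mark cells that have left the cycle.

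Many genes of G2 and mitosis share a pair of promoter elements, and the promoters of some members are shown here for that reason. Those printed from G2/M and mitosis all hold both elements, which not every member of these phases does. The CCAAT box is bound by NF-Y, and the cell cycle genes homology region (CHR, letters TTTGAA) by the DREAM complex and by MuvB with its partners. Genes of G1/S and S phase more often carry an E2F site, searched here as TTTGGCGC, TTTCCCGC, TTTCGCGC or TTTGCCGC. In the sequences below, from RefSeq on GRCm38.p6, each is the 250 bases before the annotated start, 5′ to 3′ on the gene's own strand. Capitals mark these motifs on either strand, and adjoining or overlapping matches run together.
Mki67, chr7:135716380-135716629, minus strand: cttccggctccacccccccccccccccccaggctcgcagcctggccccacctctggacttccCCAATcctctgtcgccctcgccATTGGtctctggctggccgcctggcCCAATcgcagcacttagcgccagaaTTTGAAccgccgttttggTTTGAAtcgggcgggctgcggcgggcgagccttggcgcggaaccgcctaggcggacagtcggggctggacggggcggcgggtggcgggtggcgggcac
Ccnb2, chr9:70421555-70421804, minus strand: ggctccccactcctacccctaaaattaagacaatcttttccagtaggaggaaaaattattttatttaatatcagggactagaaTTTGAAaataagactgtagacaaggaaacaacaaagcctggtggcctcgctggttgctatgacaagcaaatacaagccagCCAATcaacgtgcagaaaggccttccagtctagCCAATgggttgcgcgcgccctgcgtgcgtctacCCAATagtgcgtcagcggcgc
Cdc20, chr4:118437344-118437593, minus strand: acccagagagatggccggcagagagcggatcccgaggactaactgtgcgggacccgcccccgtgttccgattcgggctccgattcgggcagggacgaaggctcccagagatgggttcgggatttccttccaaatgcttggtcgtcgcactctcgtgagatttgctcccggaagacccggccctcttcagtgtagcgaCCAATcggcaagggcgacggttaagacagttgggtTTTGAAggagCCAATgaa
Ube2c, chr2:164769679-164769928, plus strand: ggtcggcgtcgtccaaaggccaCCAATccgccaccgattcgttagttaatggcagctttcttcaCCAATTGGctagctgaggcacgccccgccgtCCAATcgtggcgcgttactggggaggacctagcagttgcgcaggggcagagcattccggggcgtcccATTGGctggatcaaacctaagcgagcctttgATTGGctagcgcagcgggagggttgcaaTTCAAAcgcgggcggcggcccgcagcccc
Cdc2a (the array's name for Cdk1), chr10:69352913-69353162, minus strand: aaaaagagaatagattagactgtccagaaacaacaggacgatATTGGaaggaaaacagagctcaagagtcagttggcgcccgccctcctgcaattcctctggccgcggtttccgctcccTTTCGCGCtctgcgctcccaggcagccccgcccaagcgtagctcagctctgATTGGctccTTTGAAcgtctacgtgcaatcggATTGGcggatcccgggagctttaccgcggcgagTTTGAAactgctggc
Mcm6, chr1:128359706-128359955, minus strand: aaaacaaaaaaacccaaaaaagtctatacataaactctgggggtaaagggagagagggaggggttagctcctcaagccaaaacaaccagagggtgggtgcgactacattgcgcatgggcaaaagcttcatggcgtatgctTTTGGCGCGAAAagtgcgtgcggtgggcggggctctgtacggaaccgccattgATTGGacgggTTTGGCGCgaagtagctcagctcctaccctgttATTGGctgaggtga

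The Ccnb2 promoter held 3 CCAAT boxes, whose first base lay at positions -87, -54 and -21, counted from the start, and a TTTGAA at -167, with another at 5 beyond the printed stretch. In Mki67 the CCAAT boxes at -188, -166 and -141 were followed by TTTGAA at -116 and -98. Cdc20 had CCAAT at -53 and -8 with TTTGAA at -18 between them. Cdc2a carried both elements and an E2F match at -131. Mcm6, a replication gene, had E2F matches at -110, -106 and -47 and CCAAT boxes at -57 and -14, and no TTTGAA.

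A promoter was found for 39 of the 50 members in windows from 250 bases before to 50 after the start, with any window of a gene counted and both strands searched. Of 19 G2/M and mitosis genes with a promoter, 14 (73.7%) held both CCAAT and TTTGAA, against 8.97% of 27025 genes. Of 14 G1/S and S phase genes, 1 (7.14%) held both, and it was Mcm2. For E2F sites the shares were 42.9% of the G1/S and S phase genes, 5.26% of the G2/M and mitosis genes and 2.6% of all genes. With or without the other element, CCAAT occurred in 84.2% of the G2/M and mitosis genes, 64.3% of the G1/S and S phase genes and 41.1% of all genes, and TTTGAA in 73.7%, 7.14% and 20.2%. All 14 G2/M and mitosis promoters with TTTGAA also held CCAAT. Of the others in these phases, Ccnb1 and Bub1 held CCAAT alone, and Mad2l1, Birc5 and Nusap1 held neither. Birc5 and Nusap1 are among the members whose ratios differed between the pairs of arrays, as given below. Of the tested G2/M and mitosis genes with both elements, Mki67, Ccnb2, Cdc2a, Aurka, Prc1, Cdc20 and Ube2c differed too. Top2a, Plk1, Bub1b, Cdca3, Cdca8 and Cenpa, which also held both, did not pass for this difference. Any relation between these elements and the difference was not tested. A match is a run of letters and not a measured binding site.

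**Figure D1:**
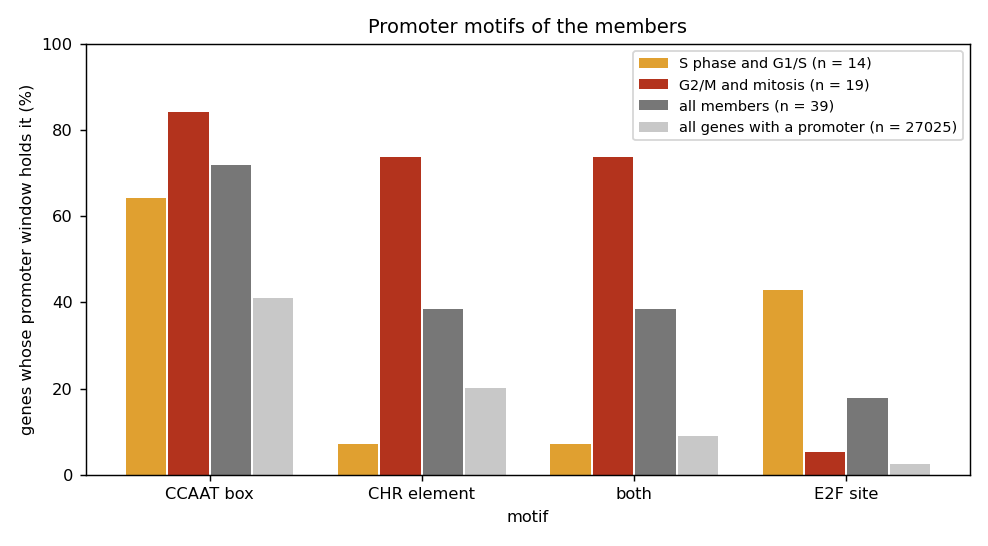
Share of genes (%, y axis) whose promoter window holds a CCAAT box, a CHR element (TTTGAA), both, or an E2F site (x axis), for 14 G1/S and S phase members, 19 G2/M and mitosis members, all 39 members with a promoter and all 27025 genes with one. The bar for both elements stands at 73.7% for G2/M and mitosis and at 8.97% for all genes.

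Every ratio below is a log2 ratio of Th3 over control on 1 array, a ± is the SD over the 4 arrays, and a gene is said to rise or fall where its Benjamini-Hochberg adjusted p in the limma fit over all genes was under 0.05. Signals are linear normalised values of 1 channel, and are compared between samples for 1 gene or for the sum over 1 list, never between genes. Of the probes, 61.8% to 72.2% were well above background in a channel, no spot was saturated, and 45 of the 47 members were well above background in all 8 samples. Ccne2 (1 of 4 control samples) and Bub1 (2 of 4) were not. As a check of the labels, the probes for the deleted beta-globin gene Hbb-bt read 8.04% to 14.6% of control. Beyond that, ratios of different genes on arrays 1 and 2 correlated at 0.67 and on arrays 3 and 4 at 0.71, against 0.43 to 0.53 between arrays of different pairs; genes are not independent replicates.

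Over the mean of both pairs of arrays 22 of 47 members rose, where 10.9% of all genes did, and 3 fell, where 10.6% did (21.5% in either direction). The members that rose lay in S phase (7 of 12), G2/M (6 of 9) and mitosis (8 of 14), with the inhibitor Cdkn1b beside them. Those that fell were the cyclins Ccnd2 and Ccnd3 and the inhibitor Cdkn1c. None of the 3 G1/S genes tested passed. The fit takes the mean of the 2 pairs and its error from the spread within each pair. In what follows, over both pairs refers to this mean, so a gene can rise over both pairs without a rise in each of them. Without a term for the pair, 6 members rose and 1 fell, where 11.3% of all genes passed in either direction. A random block for the pairs left 1 that rose (Mad2l1) and 1 that fell (Ccnd3), where 6.8% of all genes passed.

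The pairs of arrays gave different counts. On arrays 1 and 2 alone 0 of 47 members passed by limma, against 4.95% of all genes (2.63% rose and 2.32% fell); at an unadjusted p under 0.05 it was 8 higher and 3 lower. On arrays 3 and 4 alone 24 rose and 4 fell, where 7.05% and 8.76% of all genes did (15.8% in either direction). The members' median was 0.02 for the first pair and 0.35 for the second, and that of all genes was 0.02 and then -0.01. The 0.35 was 0.71 with Agilent's processed signals and 0.64 with no offset in the background correction. For the difference between the pairs itself, 12 members were higher on arrays 3 and 4, against 0.227% of all genes, and 1 (Ccnd2) was lower, against 0.766% (0.993% in either direction). All 12 belonged to G2/M or mitosis. The 4 that fell on arrays 3 and 4 were Ccnd2, Ccnd3, Cdk6 and Cdkn1c. The count of 13 was 1 (Pbk) with Agilent's processed signals, where 0.0227% of all genes passed, and 1 (Pbk) with no filter on dim probes, where 0.0617% did. It was 0 without array 3 or without array 4, where 0% and 0.0113% of all genes passed. The difference itself stayed between 0.94 and 2.27 for Pbk and between 0.59 and 1.59 for Prc1 over the settings tried. The 28 of arrays 3 and 4 became 17 without array 4, where 7.6% of all genes passed. With median centring, where the median difference of all genes between the pairs was itself -0.73, 10 members were higher on arrays 3 and 4 and 17 lower, where 72.3% of all genes passed. Because the dyes were turned between the pairs, a dye effect and a difference between the kidneys cannot be told apart in this contrast.

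**Figure D2:**
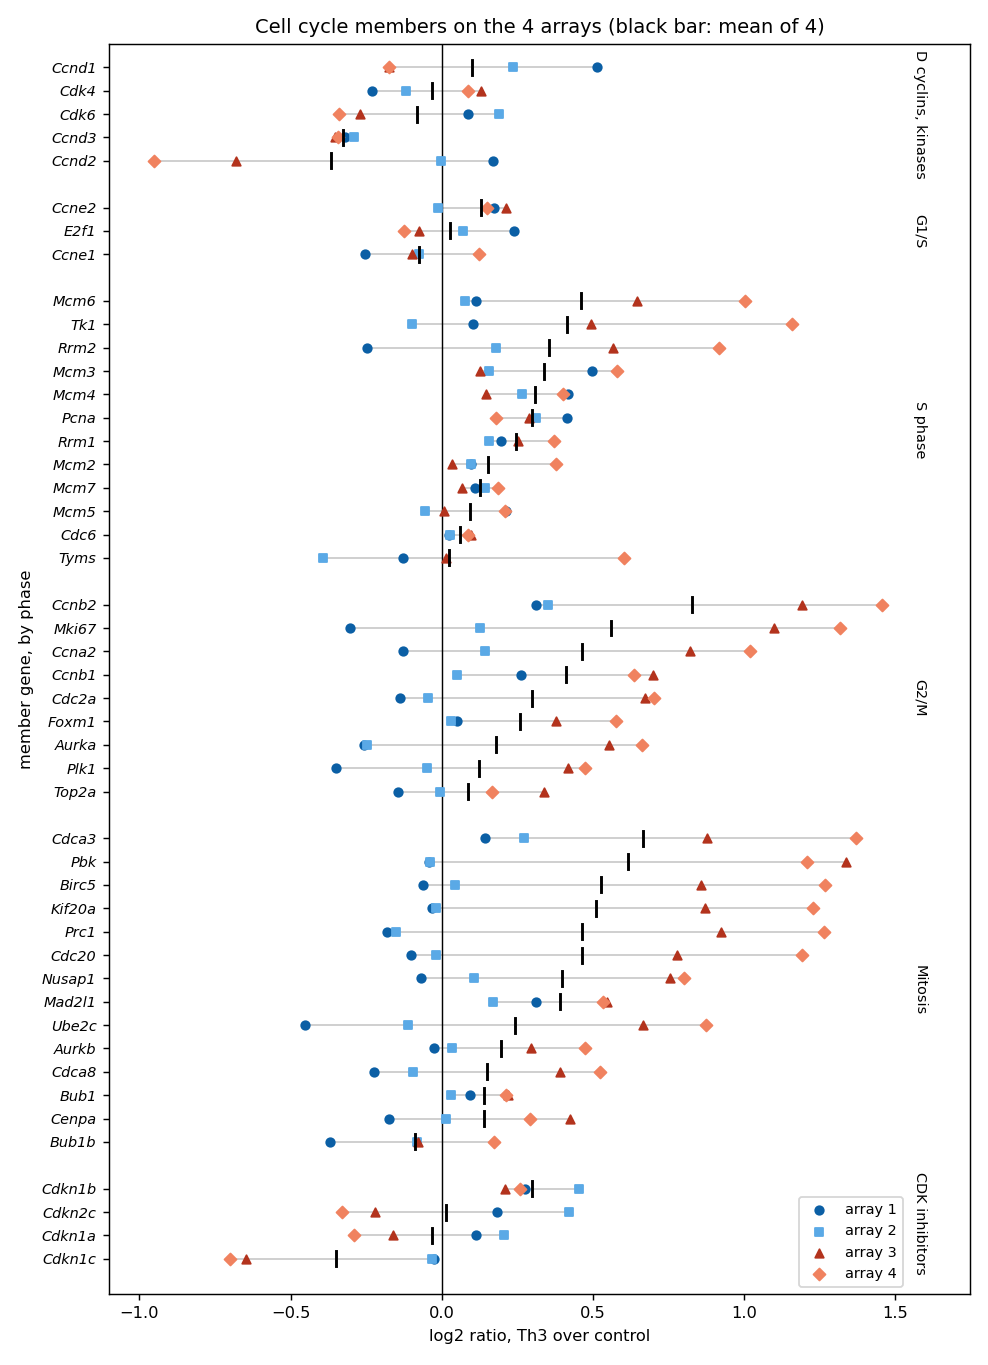
Log2 ratio of Th3 over control (x axis) of the 47 members tested, grouped by phase and ordered by mean (y axis), with 1 symbol for each of the 4 arrays and a black bar at their mean. In all 23 G2/M and mitosis genes the points of arrays 3 and 4 lie to the right of those of arrays 1 and 2, while Ccnd2 and Cdkn1c show the opposite order.

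D-type cyclins sense growth signals and switch on Cdk4 and Cdk6. Ccnd2, the cyclin with the largest decrease and the largest difference between the pairs in this class, gave 0.17 and -0.0035 on arrays 1 and 2, and -0.68 and -0.95 on arrays 3 and 4. Its mean was -0.37 ± 0.54 (n = 4, adjusted p = 0.0136), and the pairs differed by -0.90 (SE 0.13, adjusted p = 0.0479). The Th3 signals were 1946, 1525, 1402 and 1252 on arrays 1 to 4, and the control signals 1731, 1529, 2247 and 2423. The 2 control samples of arrays 3 and 4 stood above all 6 other samples. Its 2 other probes gave means of -0.83 and -0.73 on arrays 3 and 4, close to the -0.82 of the probe used.

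Ccnd3, the third D-type cyclin, did not share that split. Its ratios were -0.32, -0.29, -0.35 and -0.34, a mean of -0.33 ± 0.03 (n = 4, adjusted p = 0.00848). Th3 signals of 3202 to 3494 lay below control signals of 3999 to 4431 with no overlap. It was also lower in the authors' deposited table, with a signed fold of -1.263 and an adjusted p of 0.0265.

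The other members of this class did not pass over both pairs. Ccnd1 had the largest mean increase, 0.10 ± 0.34 (adjusted p = 0.310), made of 0.51 and 0.24 on arrays 1 and 2 and -0.18 and -0.17 on arrays 3 and 4. Cdk6 fell on arrays 3 and 4 alone (0.09, 0.19, -0.27 and -0.34, adjusted p = 0.0415), but its 2 dimmer probes gave 0.03 and 0.05 there. Cdk4, the partner kinase, gave -0.23, -0.12, 0.13 and 0.09.

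At the G1/S step no member passed on either pair or in the difference. Ccne2, an E-type cyclin, had the largest mean (0.17, -0.01, 0.21 and 0.15, mean 0.13 ± 0.10, adjusted p = 0.158). Ccne1 had the lowest (-0.25, -0.07, -0.10 and 0.12, mean -0.08 ± 0.15, adjusted p = 0.448). E2f1, a transcription factor of S phase genes, had the largest difference between the pairs, -0.26 (SE 0.11, adjusted p = 0.310), from 0.24 and 0.07 to -0.08 and -0.13. A second E2f1 probe gave -0.06 and then 0.16, the opposite order.

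In S phase 7 of 12 members rose and none fell. Mcm6, a subunit of the replicative helicase, had the largest mean increase, 0.46 ± 0.45 (n = 4, adjusted p = 0.00818), from ratios of 0.11, 0.08, 0.65 and 1.00. Its Th3 signals were 7301, 6501, 6809 and 9586, and its control signals 6752, 6162, 4350 and 4781. The control samples of arrays 3 and 4 were again the lowest of the 8. Tk1, thymidine kinase, had the largest difference between the pairs in this phase, 0.83 (SE 0.22, adjusted p = 0.140). It read 0.10, -0.10, 0.50 and 1.16, with a mean of 0.42 ± 0.55 (adjusted p = 0.0399).

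Pcna, Mcm4, Rrm1 and Mcm3 rose too, with ratios above 0 on every array. Pcna, the sliding clamp of DNA polymerase, gave 0.42, 0.31, 0.29 and 0.18 (mean 0.30 ± 0.10, adjusted p = 0.0134), with Th3 signals of 6012 to 6778 above control signals of 4916 to 5552. Mcm4 gave 0.42, 0.27, 0.15 and 0.40 (adjusted p = 0.0213), and Rrm1, the large subunit of ribonucleotide reductase, gave 0.20, 0.16, 0.25 and 0.37 (adjusted p = 0.0232). These 3 were also called without the term for the pair. Mcm3, another helicase subunit, gave 0.50, 0.16, 0.13 and 0.58 (adjusted p = 0.0464). Of 14 other settings tried, its call was lost in 8, those of Mcm4 and Rrm1 in 4 each and that of Pcna in 2.

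The rest of the phase was less even. Rrm2, the small reductase subunit, rose over both pairs (adjusted p = 0.0384) with -0.25, 0.18, 0.57 and 0.92. The calls of Rrm2 and Tk1 were each lost in 5 of 14 other settings. Tyms, thymidylate synthase, did not pass (-0.13, -0.39, 0.02 and 0.60). Cdc6, Mcm2, Mcm5 and Mcm7, which load or form the helicase, had means of 0.06, 0.15, 0.09 and 0.13 and none passed. In S phase 8 of 12 members had a ratio above 0 on all 4 arrays, which held for 19.7% of all genes; over all members it was 15, and 2 members (17.4% of all genes) were below 0 on all 4.

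In G2/M 6 of 9 members rose over both pairs, 8 rose on arrays 3 and 4 alone, and 5 differed between the pairs. Mki67, which codes for the Ki-67 protein of dividing cells, had the largest difference of this phase. Its ratios were -0.30, 0.13, 1.10 and 1.32, a mean of 0.56 ± 0.77 (n = 4, adjusted p = 0.00754), and the pairs differed by 1.30 (SE 0.17, adjusted p = 0.0424). The probe lies at chr7:135528251-135528310 on mm8, and a second probe gave -0.40, 0.08, 0.81 and 0.75. The Th3 signals of Mki67 were alike on all 4 arrays, 840, 983, 945 and 1006. The control signals were 1038 and 900 on arrays 1 and 2, close to those of Th3, and 441 and 403 on arrays 3 and 4.

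Ccnb2, a B-type mitotic cyclin, had the largest mean increase of all members. Its ratios were 0.31, 0.35, 1.19 and 1.46, a mean of 0.83 ± 0.58 (n = 4, adjusted p = 0.00126), or 1.78-fold, and 2.5-fold on arrays 3 and 4 alone. Th3 signals of 974, 1151, 1082 and 1276 stood above every control signal (784, 902, 474 and 465). The groups did not overlap, and the controls of arrays 3 and 4 were again the lowest. The pairs differed by 0.99 (SE 0.13, adjusted p = 0.0424). With the pairs as a random block the mean did not pass (adjusted p = 0.0563). In the authors' deposited table its signed fold was 1.838 with an adjusted p of 0.0425. The probe lies at chr9:70207028-70207087 on mm8.

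The other cyclins and kinases of this phase followed the same order of arrays. Ccna2, cyclin A2, gave -0.13, 0.14, 0.82 and 1.02, and Ccnb1, cyclin B1, gave 0.26, 0.05, 0.70 and 0.64. Cdc2a, the kinase Cdk1 that both activate, gave -0.14, -0.04, 0.67 and 0.70. All 3 rose in the mean of the pairs, but not on arrays 1 and 2 alone, and Ccna2 and Cdc2a also differed between the pairs. Foxm1, a transcription factor of mitotic genes, rose with 0.05, 0.03, 0.38 and 0.58. The kinases Aurka (-0.26, -0.25, 0.55 and 0.66) and Plk1 (-0.35, -0.05, 0.42 and 0.48), which build the spindle, changed sign between the pairs and did not pass over both, although both rose on arrays 3 and 4. Of these kinases Aurka passed for the difference between the pairs. Top2a, the topoisomerase that untangles chromosomes, read -0.14, -0.01, 0.34 and 0.17 with a dim probe and passed in none of these contrasts. On arrays 3 and 4 it passed in 5 of 12 other settings, with values from 0.17 to 1.24. No member of this phase had a mean below 0.

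In mitosis 8 of 14 members rose over both pairs, 12 rose on arrays 3 and 4 alone, and 7 differed between the pairs. Cdca3, which triggers mitotic entry, had the largest mean increase, 0.67 ± 0.57 (n = 4, adjusted p = 0.00533), with 0.14, 0.27, 0.88 and 1.37. Its second probe gave a mean of 0.26, in the same direction on 3 of 4 arrays. Pbk, a mitotic kinase, had the largest difference between the pairs of all 47 members, 1.31 (SE 0.11, adjusted p = 0.0348), from -0.04 and -0.04 to 1.34 and 1.21. Th3 signals of Pbk were 217, 250, 273 and 281, and control signals 224, 257, 108 and 121. On arrays 1 and 2 the groups overlapped, and on arrays 3 and 4 the Th3 level was 2.42 times that of control.

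Several other members code for spindle and chromosomal passenger proteins. Prc1, which bundles midzone microtubules, gave -0.18, -0.15, 0.92 and 1.26. Birc5, the survivin of the chromosomal passenger complex, gave -0.06, 0.04, 0.86 and 1.27. Both rose in the mean of the pairs, but not on arrays 1 and 2 alone, and both differed between the pairs. Kif20a, a kinesin of cytokinesis, gave -0.03, -0.02, 0.87 and 1.23, with a second probe at 0.99 on arrays 3 and 4 against 1.05. Nusap1, a spindle protein, gave -0.07, 0.11, 0.76 and 0.80, and likewise passed in both contrasts. The passenger subunits Aurkb and Cdca8 rose on arrays 3 and 4 alone (means 0.38 and 0.46 there), and passed neither over both pairs nor for the difference.

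Cdc20, the activator of the anaphase-promoting complex, gave -0.10, -0.02, 0.78 and 1.19, and its ubiquitin-conjugating enzyme Ube2c -0.45, -0.11, 0.67 and 0.87. Cdc20 rose in the mean of the pairs (adjusted p = 0.0101), while Ube2c did not pass (adjusted p = 0.0636), and both differed between the pairs. Control signals of Cdc20 were 1723 and 1830 in the first pair and 936 and 934 in the second, against Th3 signals of 1606 to 2137.

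Mad2l1, a spindle checkpoint protein that restrains Cdc20, rose with 0.31, 0.17, 0.55 and 0.53 (mean 0.39 ± 0.18, adjusted p = 0.00629), and its second probe was above 0 on every array too. In the authors' deposited table its signed fold was 1.469 with an adjusted p of 0.0172. Bub1b, another checkpoint protein, had the only mean below 0 in mitosis, -0.09 ± 0.22 (adjusted p = 0.428), with -0.37, -0.08, -0.08 and 0.17. Bub1 (0.09, 0.03, 0.22 and 0.21) and the centromere histone Cenpa (-0.17, 0.01, 0.42 and 0.29) did not pass over both pairs, and Cenpa rose on arrays 3 and 4 alone.

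Of the CDK inhibitors, 1 rose and 1 fell. Cdkn1b, p27, rose with 0.27, 0.45, 0.21 and 0.26, a mean of 0.30 ± 0.11 (n = 4, adjusted p = 0.0149), and Th3 signals of 987 to 1179 stood above control signals of 853 to 966. A dimmer kept probe of Cdkn1b had a mean of 0.01. The authors' deposited table gives Cdkn1b a signed fold of 1.247 with an adjusted p of 0.0461. Cdkn1c, p57, fell, with -0.03, -0.03, -0.65 and -0.70 (mean -0.35 ± 0.37, adjusted p = 0.00703), and had the largest difference between the pairs among inhibitors (-0.64, SE 0.10, adjusted p = 0.0524). Its Th3 signals were 3716, 3400, 3353 and 2974, and its control signals 3783, 3475, 5247 and 4830, so that only the controls of arrays 3 and 4 stood apart. Cdkn1a, p21 of the p53 response, and Cdkn2c, p18, did not pass, and both were above 0 on arrays 1 and 2 (means 0.16 and 0.30) and below 0 on arrays 3 and 4 (-0.23 and -0.27).

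The signals of single samples show where the pairs parted. In 22 of the 23 G2/M and mitosis genes tested, the control samples of arrays 3 and 4 were both lower than all 6 other samples, where 11.4% of all genes showed this order; Bub1b was the exception. In all 23 both ratios of arrays 3 and 4 lay above both of arrays 1 and 2, where 20.8% of all genes did so. Outside these phases 6 of 24 members had those controls lowest and 6 had them highest (13% of all genes had them highest). The 6 highest were Ccnd2, Ccnd3, Cdk6, Cdkn1a, Cdkn1c and Cdkn2c, which are all D-type cyclins, their kinases or CDK inhibitors. For Ccnd3 the margin was small, 4091 against 4064 in the next sample.

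**Figure D3:**
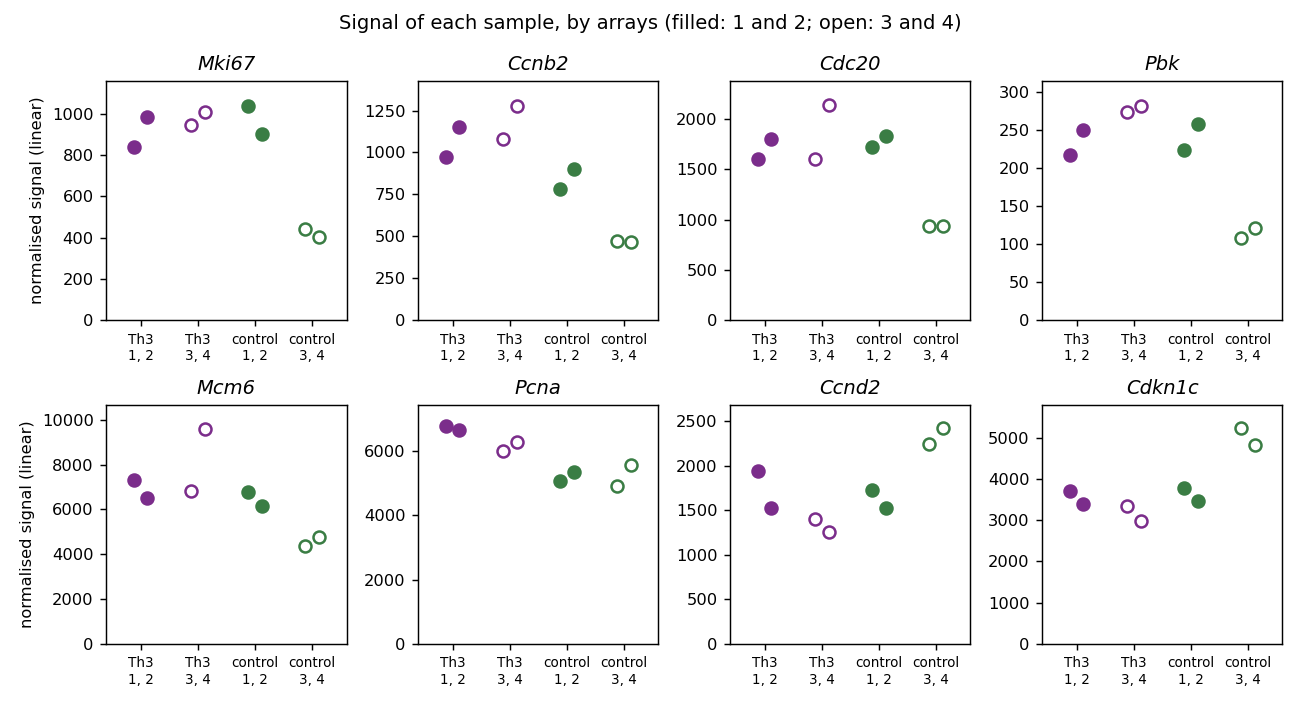
Normalised signal (linear, y axis starting at 0) of 8 members in each of the 8 samples, with Th3 samples in purple, controls in green, arrays 1 and 2 filled and arrays 3 and 4 open (x axis). For Mki67 the 2 controls of arrays 3 and 4 read 441 and 403 while the other 6 samples read 840 to 1038; for Ccnd2 and Cdkn1c those controls are the highest.

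In a fit of the separate channels, chosen after the data were seen, the Th3 samples and the control samples were each compared between the pairs. Among Th3 samples 0 of 47 members passed in this limma fit (6 at an unadjusted p under 0.05), and 0% of all genes were higher and 0.0284% lower on arrays 3 and 4. Among control samples 14 members were lower on arrays 3 and 4, where 0.5% of all genes were, and 0 were higher, where 1.28% were (6 at an unadjusted p under 0.05). All 14 were G2/M or mitosis genes. The median shift of the 23 genes of these phases was 0.12 in Th3 samples (range -0.03 to 0.28) and -0.63 in control samples (range -1.20 to -0.15). For all genes the medians were -0.01 and 0.01. The controls of arrays 3 and 4 held 43.7% of the Mki67 signal of those of arrays 1 and 2 (adjusted p = 0.00490), 47.8% of that of Pbk (0.00593) and 51.9% of that of Birc5 (0.0132). The shift of the G2/M and mitosis genes lay mostly on the control side. Both groups changed dye between the pairs, in opposite directions, so dye and kidney cannot be told apart in either group.

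**Figure D4:**
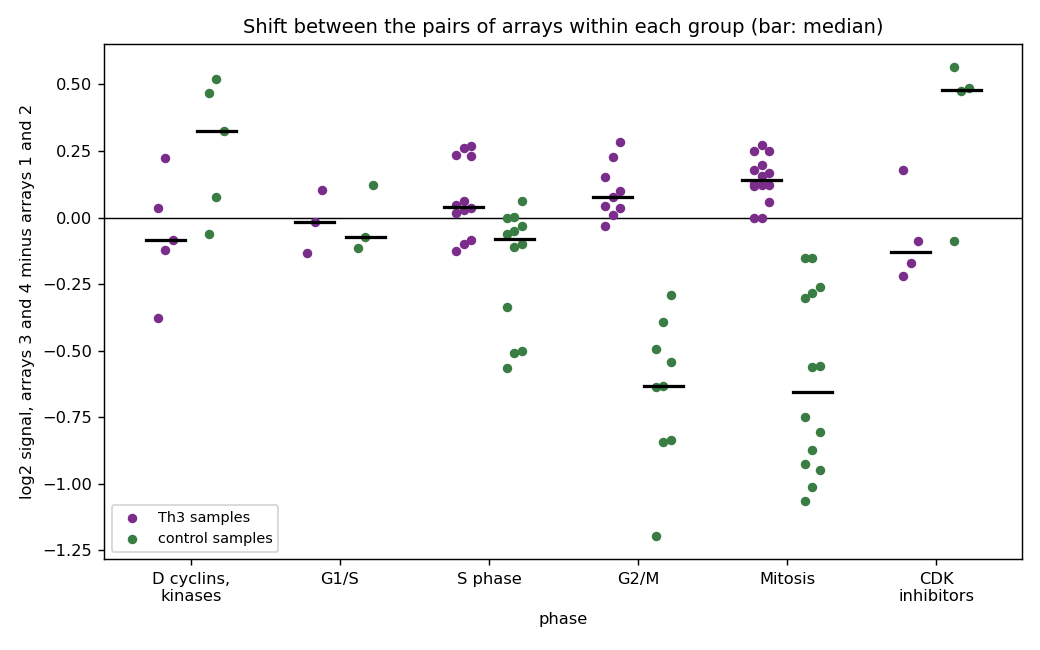
Shift of the log2 signal from arrays 1 and 2 to arrays 3 and 4 (y axis) of each member, by phase (x axis), within the 4 Th3 samples (purple) and within the 4 control samples (green), with a bar at the median. In G2/M the medians are 0.08 and -0.63 and in mitosis 0.14 and -0.65, while D-type cyclins with their kinases and CDK inhibitors have positive medians in the controls, 0.32 and 0.48.

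Another 91 genes of the cell cycle, listed apart from the members, gave 80 tested genes. Over both pairs 27 rose and 2 fell, where 10.9% and 10.6% of all genes did. On arrays 3 and 4 alone 28 rose and 2 fell (7.05% and 8.76% of all genes), and on arrays 1 and 2 alone 0 rose and 1 fell (2.63% and 2.32%). Their median was 0.06 for the first pair and 0.24 for the second, and 5 were higher on arrays 3 and 4 in the difference between the pairs (0.227% of all genes). Among 29 S phase genes 13 rose, led by Gins1, a helicase cofactor (0.45, 0.17, 0.55 and 0.83), and Cdt1, a licensing factor (0.26, 0.21, 0.60 and 0.85). Among 35 mitosis genes 11 rose, led by Cdkn3, a CDK phosphatase (0.35, 0.17, 1.10 and 1.47), and Cenpf, a kinetochore protein (0.15, 0.18, 0.91 and 1.05). The 2 that fell were Stmn1, a microtubule regulator (mean -0.32 ± 0.11), and Spc25, a kinetochore subunit, which read -0.75, -0.58, 0.21 and 0.03.

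Of 16 genes of arrest, the p53 response and the pocket proteins 3 rose and none fell. They were Myc, a growth-promoting transcription factor (0.74, 0.50, 0.46 and 1.30, mean 0.75 ± 0.39, adjusted p = 0.0116), and the pocket proteins Rb1 (mean 0.31 ± 0.25) and Rbl1 (mean 0.23 ± 0.05), which hold E2F factors in check. None of these 3 passed for the difference between the pairs. In the other-gene S phase class the controls of arrays 3 and 4 were the lowest samples in 14 of 29 genes, in the mitosis class in 27 of 35, and in the arrest class in 3 of 16, against 11.4% of all genes.

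Markers of other cells that kidney RNA can hold also varied between samples, and their counts are over both pairs, where 10.9% of all genes rose and 10.6% fell. Less RNA of a cell type in a bulk sample can mean fewer cells or less RNA per cell, and these cannot be told apart. Of 11 macrophage markers tested, 0 rose and 8 fell over both pairs, with medians of -0.11 and then -0.66 in the 2 pairs. Their summed signal was 12346 to 23297 in Th3 samples and 15107 and 18891 in the controls of arrays 1 and 2, but 33006 and 37702 in the controls of arrays 3 and 4. Lyz2, lysozyme of macrophages and granulocytes, made up 25112 and 29853 of these last sums; without it they were 7894 and 7850, against 6029 and 5644 in the other controls and 4125 to 5777 in Th3 samples. Of 9 lymphocyte markers 7 fell, with medians of -0.09 and -0.77, and their sums were 1698 to 2028 in Th3 samples, 2006 and 2345 in the controls of arrays 1 and 2, and 7361 and 4887 in the other controls. Jchain, the joining chain of plasma cells, read 4681 and 2652 in those last controls against 142 to 413 in the other 6 samples. Without Jchain the lymphocyte sums were 2680 and 2235 in those controls and 1431 to 1988 in the other 6 samples. The samples with the lowest mitotic signals were thus those with the highest macrophage and lymphocyte signals. They were also those with the lowest sums of erythroid and granulocyte precursor markers, given below.

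Red cell precursors divide and were examined for that reason. Of 13 erythroid markers tested 10 rose and 0 fell, with medians of 0.25 and then 0.48. Their sums were 5854 to 7635 in Th3 samples and 7491 and 5646 in the controls of arrays 1 and 2. In the controls of arrays 3 and 4 they were 4811 and 5040, the lowest of all samples. Those controls were both lower than every other sample in 10 of the 13 markers, against 11.4% of all genes. Rhag was not well above background in any control sample. The erythroid transcription factor Klf1 was well above background in all 8 samples, and Gata1 was not tested. Of 8 markers of granulocyte precursors 5 were tested, and 3 of these were well above background in all 8 samples. Of the 5 tested, 2 rose and 0 fell. Their sums were 650 and 694 in the controls of arrays 3 and 4 and 921 to 1942 in all other samples. Those controls were the lowest samples in 3 of the 5. The summed member signal itself was 56796 to 64251 in Th3 samples and 52754 to 55377 in controls. The part of these cells in the ratios of the members was not tested.

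Of 10 nephron markers 3 fell and none rose, with medians of -0.12 and -0.16. Umod, uromodulin of the thick ascending limb, named here after its values were seen, was the 1 nephron marker that differed between the pairs, from 0.35 to -0.82 (difference -1.17, adjusted p = 0.0388). By limma 0 of 6 endothelial markers passed (1 at an unadjusted p under 0.05), and of 6 markers of injured tubule 1 rose and 2 fell, with medians of 0.30 and then -0.33. Adipose markers, from fat that can adhere to the organ, varied between samples: their sum was 44783 to 65040 in Th3 samples and 24921 to 94154 in controls, with 1 of 5 higher and 2 lower.

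**Figure D5:**
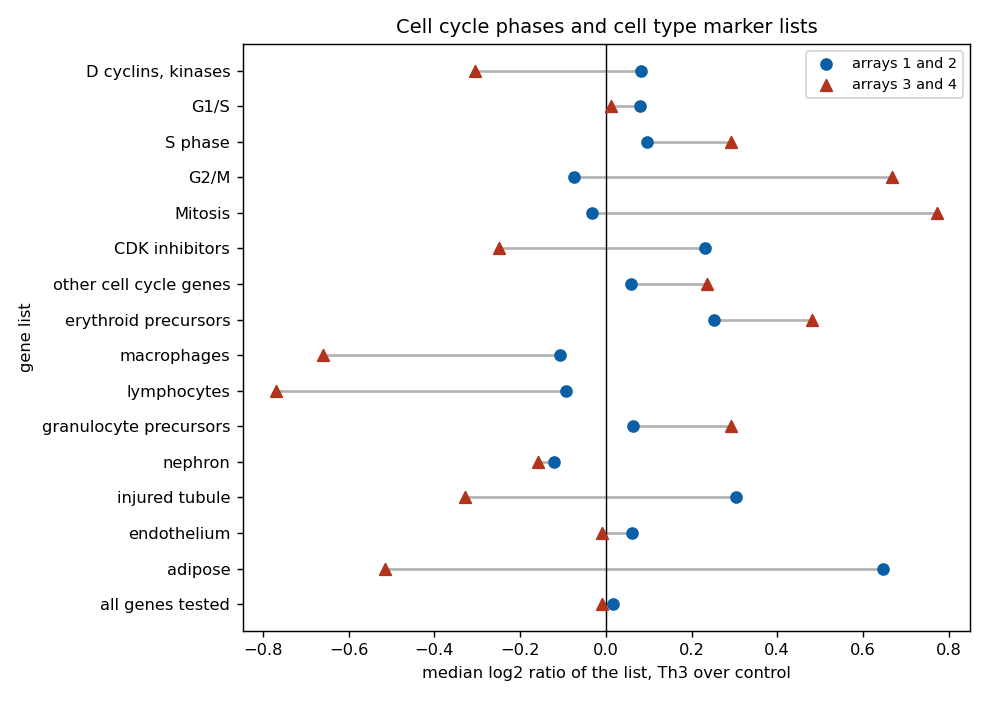
Median log2 ratio of Th3 over control (x axis) of each phase of the members, of the other cell cycle genes and of cell type marker lists (y axis), on arrays 1 and 2 (blue circles) and on arrays 3 and 4 (red triangles). G2/M and mitosis move from -0.08 and -0.03 to 0.67 and 0.77, macrophage and lymphocyte markers to -0.66 and -0.77, and all genes tested stay at 0.02 and -0.01.

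By the authors' own test, as given in their deposited table, 3 of 47 members were higher (Ccnb2, Mad2l1 and Cdkn1b) and 1 lower (Ccnd3) at an adjusted p under 0.05. Mki67, with a signed fold of 1.512 in the authors' deposited table, had an adjusted p of 0.232 there.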

How the data were processed

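Kidney RNA of 4 Th3 and 4 control samples was hybridised in pairs on 4 two-colour Agilent arrays. The members and lists were chosen with earlier results of these data known. The deposited scanner files hold raw spot intensities and processed intensities, background-subtracted and dye-normalized, per the file headers. The deposited log10 ratio of Cy5 over Cy3 served to check directions. The authors deposited, for each array, log2 ratios of Th3 to control (normalization not given in the sources used here), a signed fold, a score by a rule not given, and p-values of an unnamed test.

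Spot means were corrected with normexp (offset 50) and normalized by loess (span 0.3, 4 iterations) in limma 3.58.1 (R 4.3.3, with the package data.table in version 1.17.8). A probe was kept if well above background in all 4 samples of a group, with at least 3 values. Each of 17628 genes was read from its brightest kept probe and named through RefSeq (GRCm38.p6); probe positions are mm8, from the files. Ratios were fitted with lmFit and eBayes (2 residual and 4.52 prior degrees of freedom), 1 mean per pair of arrays. Single-channel signals are after loess and Aquantile. The separate-channel fit used lmscFit with an intraspot correlation of 0.10 on 17605 genes with 4 values. Both fits were tested on simulated data. Full statistics were given for Mki67, Ccnb2 and, per phase, the largest mean increase, mean decrease and pair difference; of the other cell cycle genes, the 2 largest increases and decreases per class among those called. Precision is limited by having 4 arrays.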

Additional observations from a re-analysis of the deposited data

Results flagged for a closer look

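The contrast of Th3 with control differed between the pairs of arrays for 13 members, by the limma test of the difference itself (adjusted p under 0.05 over all genes). The log2 ratio was higher on arrays 3 and 4 than on arrays 1 and 2 by 1.31 for Pbk, 1.30 for Mki67, 1.26 for Prc1, 1.08 for Kif20a, 1.07 for Birc5, 1.05 for Ube2c and 1.05 for Cdc20. It was higher by 0.99 for Ccnb2, 0.91 for Ccna2, 0.86 for Aurka, 0.78 for Cdc2a and 0.76 for Nusap1. For Ccnd2 the difference was -0.90. Pbk, a mitotic kinase, was the 1 member still called with Agilent's processed signals (2.27) and without the filter on dim probes (1.31). In no member did 1 of the 4 arrays stand apart from the other 3 by Dixon's test. That test looks at gaps at the ends of the 4 values, so it cannot flag a split between the pairs. Dyes and kidneys changed together between the pairs and cannot be told apart.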

How the results depend on the processing

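The count of members over both pairs was 25 (22 rose, 3 fell) and stayed from 19 to 27 in all settings but those for the pairs: 7 without the dye term and 2 where the pairs were a random block. The other cell cycle genes, with 29, gave 11 and 5. Leaving out each array in turn gave 19 to 25 members and 19 to 27 other genes. For the difference between the pairs, 13 members (0.993% of all genes) became 1 with Agilent's processed signals (0.0227%) and 1 without the filter on dim probes (0.0617%), and 0 to 17 with an array left out, 0 without array 3 (0%) and 0 without array 4 (0.0113%). The difference for Pbk was 2.27 and 1.31 in the first 2 of these settings, against 1.31. The 5 other genes became 0, 0 and 0 to 8, and 8 under robust variances with an intensity trend. On arrays 1 and 2 alone, 0 members became 1 with the mean of all kept probes, 3 with separate channels (2 higher, 1 lower) and 0 to 1 with an array left out; 1 other gene became 1 to 3. On arrays 3 and 4 alone, 28 members became 17 to 28 with an array left out (17 without array 4), and 30 other genes became 10 to 33 (10 without array 4).

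Median centring left the median of all genes at 0.37 on arrays 1 and 2, -0.29 on arrays 3 and 4 and -0.73 for the difference. Relative to these the members' medians were 0.01, 0.56 and 0.75. It called 26 members on arrays 1 and 2 (25 higher), 31 on arrays 3 and 4 (23 higher, 8 lower) and 27 for the difference (10 higher, 17 lower), against 59.6%, 51.6% and 72.3% of all genes. Of the other genes it called 48 on arrays 1 and 2 and 48 for the difference. Among values called with or without median centring, signs turned under it for the difference in Cdk4 (-0.53), Ccne1 (-0.39), Mcm2 (-0.58), Mcm3 (-0.84), Mcm5 (-0.58) and Rrm1 (-0.63), on arrays 1 and 2 in Ccnd3 (0.29), Mki67 (0.39), Birc5 (0.51), Kif20a (0.43), Cdc20 (0.48) and Cdkn1c (0.56), and on arrays 3 and 4 in Mcm7 (-0.30) and Rrm1 (-0.035). The members' median on arrays 3 and 4 was 0.71 with processed signals and 0.64 without the offset, against 0.35. Each log2 ratio already pairs the Th3 and the control sample of 1 array.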
